A study of Rattus norvegicus with 4 samples.

Results

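The host genes Tenm2, Gli3, Ptch1, Tjp1 and Bnc2 together gave 9 circular RNAs (circRNAs) out of the 4942 listed in rat sciatic nerve. A circRNA is a closed transcript made when a downstream splice site is joined back to an upstream one, and the reads that cross this back-splice are its junction reads. The 9 are all entries whose host symbol is one of the 5 names. The hosts were selected on their junction reads in these same crush and sham libraries, so the crush and sham values below are a description and carry no test. The 4 libraries were total RNA of Sprague-Dawley rats at postnatal week 6, taken 24 h after surgery, and no transgene or drug is named in the labels. In the crush group (2 libraries) 3 mm of nerve was squeezed 2 times with forceps, and in the sham group (2 libraries) the nerve was exposed only. The tissue was the crush site plus 1 mm of nerve on either side. The labels name no animals, so whether libraries are pools or separate rats is unknown.

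A peripheral nerve is bundled by the perineurium, a sleeve of flattened cells sealed by tight junctions that forms part of the blood-nerve barrier. In mouse, Schwann cells secrete the ligand Desert hedgehog, and cells of the nerve sheath receive it through the receptor encoded by Ptch1. Ptch1 holds the transducer Smoothened inactive until a ligand binds, and the GLI transcription factors, of which Gli3 acts mainly as a repressor when the pathway is silent, carry the signal to target genes. Ptch1 is itself a target of GLI factors, which bind DNA at the sequence GACCACCCA. Tjp1 encodes ZO-1, a scaffold protein below tight junctions. Tenm2 encodes a teneurin, a large adhesion receptor that binds latrophilins, and Bnc2 encodes the zinc finger protein basonuclin 2.

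The names perineurial and hedgehog rest on what the genes are known for, not on markers measured here. Of 11 perineurial cell markers, 4 gave a circRNA, and these were the hosts Tenm2, Tjp1, Ptch1 and Bnc2 themselves. The other 7 (Slc2a1, Cldn1, Krt19, Itgb4, Tenm4, Gli1 and Lypd2) had no circRNA listed. The hosts are therefore called by their gene names. Of 17 Schwann cell markers, Pmp22, Mbp and Ugt8 gave a circRNA, and Mag, Prx and Sox10 gave none. A gene enters these files only if it forms circles, so a missing marker says nothing about its linear transcript.

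The promoters of the hedgehog hosts are shown because the receptor gene carries the GLI sequence there. Both are the 250 bases before a transcription start in RefSeq (build GRCr8), at chr17:1555321-1555570 on the plus strand for Ptch1 and chr17:54405199-54405448 on the minus strand for Gli3. Capitals mark TGGGTGGTC, which is GACCACCCA read on the other strand.
Ptch1: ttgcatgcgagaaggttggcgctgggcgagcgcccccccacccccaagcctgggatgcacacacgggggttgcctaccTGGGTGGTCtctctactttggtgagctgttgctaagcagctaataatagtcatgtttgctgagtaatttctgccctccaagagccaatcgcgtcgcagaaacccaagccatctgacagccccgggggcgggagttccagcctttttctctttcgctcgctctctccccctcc
Gli3: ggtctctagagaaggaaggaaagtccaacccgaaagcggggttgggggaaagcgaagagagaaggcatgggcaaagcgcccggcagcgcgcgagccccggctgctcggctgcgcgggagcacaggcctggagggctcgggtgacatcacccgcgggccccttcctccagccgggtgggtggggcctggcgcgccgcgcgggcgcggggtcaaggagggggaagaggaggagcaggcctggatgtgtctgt
The Ptch1 match lies 172 to 164 bases before the start. All 5 hosts had a window in the RefSeq table, with 6 windows in all, and the Ptch1 window was the only 1 of these 6 with a match on either strand. Of 33469 such windows of the rat genome, 113 (0.338%) held the motif. A match is a string of letters and not a measured binding site.

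Depth was similar across libraries, and the 5 hosts took a small part of it. Crush replicates 1 and 2 held 8250 and 9027 junction reads, and sham replicates 1 and 2 held 9018 and 8726. The smallest count listed above 0 was 2 reads in each library, so a listed 0 can stand for a read or so that was not reported. The deposited SRPBM signal is the count times a constant of the library, so 1 read counts for 0.0725 and 0.0598 SRPBM in crushed nerve and for 0.0729 and 0.0786 in sham nerve.

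The 5 hosts had almost no circRNA signal after crush. Summed over the hosts, crushed nerve had 3 and 4 junction reads and sham nerve 33 and 23. This was 0.0364% (95% exact Clopper-Pearson interval 0.00750% to 0.106%) and 0.0443% (0.0121% to 0.113%) of all junction reads after crush, against 0.366% (0.252% to 0.514%) and 0.264% (0.167% to 0.395%) after sham. The intervals cover counting error only. The SRPBM sum averaged 0.228 ± 0.0153 in crushed nerve and 2.11 ± 0.421 in sham nerve (SD, n = 2 each), a log2 ratio of -3.21 for crush over sham. All 7 crush reads came from Tenm2, and the other 4 hosts were listed at 0 in both crush libraries. Those 4 hosts together had 15 and 14 reads in the sham libraries, or 1.10 ± 0.00587 SRPBM (SD, n = 2). This SD does not show how well single hosts repeat. Between sham replicates 1 and 2, Gli3 rose from 2 to 6 reads and Tjp1 fell from 3 to 0. With a floor of 3 reads for each of the 4 hosts in each crush library, their sum was at least 1.38-fold lower after crush. The bounds below use the same floor of 3 reads per host and library, and assume that a 0 in the files hides no more than that.

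**Figure D1:**
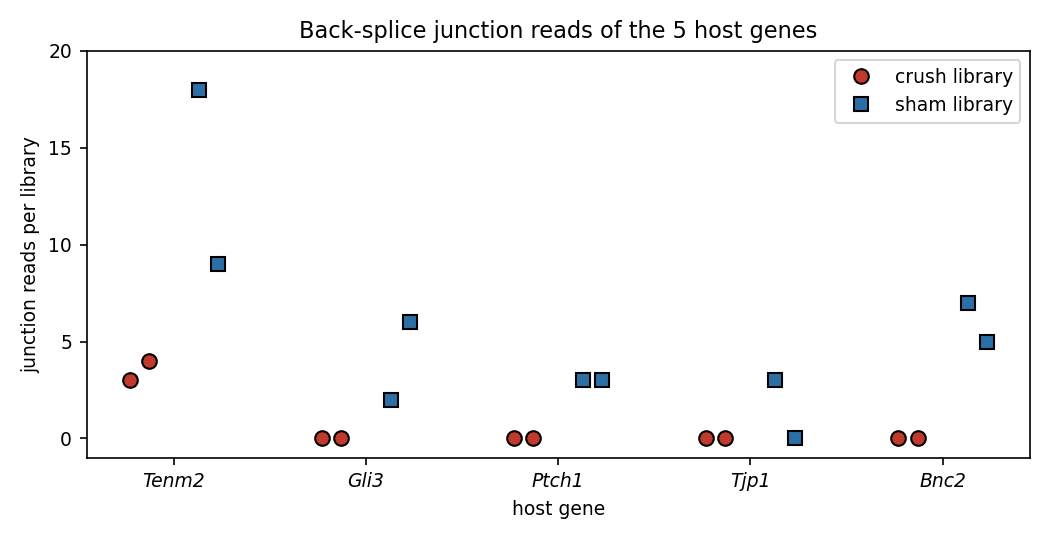
Junction reads in each library (vertical axis) for the 5 host genes (horizontal axis), with crush libraries as red circles and sham libraries as blue squares. Only Tenm2 has reads after crush, 3 and 4, below its 18 and 9 reads after sham, and Tjp1 has reads in 1 sham library only.

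Ptch1 (ENSRNOG00000019354), the hedgehog receptor gene, gave 1 circRNA, classed as intronic, at chr17:1057871-1065593 on the minus strand (Rnor_6.0 coordinates of the files). Its reads numbered 0 and 0 in crushed nerve against 3 and 3 in sham nerve, a sham level of 0.227 ± 0.0123 SRPBM (SD, n = 2). Both sham libraries lay above both crush libraries, but the sham level is at the floor of 3 reads, so no fold is given. Its span, end minus start with introns included, was 7722 bases, longer than 54.3% of the 479 intronic circRNAs. The file's minus strand is opposite to the plus strand of Ptch1 in RefSeq. The exonic circRNA of Ercc6l2, also near that end of chromosome 17, was opposite to its RefSeq strand as well. Of intronic circRNAs with a RefSeq strand on the same chromosome, 82.0% (314 of 383) matched it, and of exonic ones 95.4% (2873 of 3012). The files and RefSeq are on different builds, so whether the Ptch1 circle lies in sense cannot be told here.

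Gli3 (ENSRNOG00000014395), the GLI repressor gene, gave 1 exonic circRNA at chr17:52477332-52555114 on the minus strand. Its reads numbered 0 and 0 in crushed nerve against 2 and 6 in sham nerve, a sham level of 0.309 ± 0.231 SRPBM (SD, n = 2), at least 1.56-fold lower after crush. The groups did not overlap, but the fold rests on sham replicate 2, since the 2 reads of sham replicate 1 lie under the floor and give none. Its span of 77782 bases was longer than 97.7% of the 3731 exonic circRNAs.

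Tjp1 (ENSRNOG00000011077), the ZO-1 gene, gave 1 exonic circRNA at chr1:126180595-126195625 on the minus strand, with a span of 15030 bases. Its reads numbered 0 and 0 in crushed nerve against 3 and 0 after sham. Sham replicate 2 was at 0 like both crush libraries, so the groups overlapped and no change in level was measurable for the tight junction scaffold at this depth.

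Bnc2 (ENSRNOG00000006553), the basonuclin gene, gave 1 exonic circRNA at chr5:102432516-102434485 on the minus strand, with a span of 1969 bases, longer than 15.4% of exonic circRNAs. Its reads numbered 0 and 0 in crushed nerve against 7 and 5 in sham nerve, a sham level of 0.452 ± 0.0825 SRPBM (SD, n = 2), at least 2.28-fold lower after crush. Both sham libraries were above the floor, and this was the largest sham count among the 4 hosts without crush reads.

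Tenm2 (ENSRNOG00000027341), the teneurin gene, carried 54.0% of all junction reads of the 5 hosts, spread over 5 circRNAs. Of 2327 host genes, 134 (5.76%) had at least 5 circRNAs and 1447 (62.2%) had 1. Summed, Tenm2 reads numbered 3 and 4 in crushed nerve against 18 and 9 in sham nerve. In SRPBM this was 0.228 ± 0.0153 in crushed nerve and 1.01 ± 0.427 in sham nerve (SD, n = 2 each). The fitted log2 change was -1.69 ± 0.70 (SE, edgeR, crush minus sham). The groups did not overlap, and sham replicate 1 was the highest of the 4 libraries.

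The Tenm2 circRNAs are exonic, lie on the minus strand of chromosome 10 and share back-splice ends. The end at 21109521, which on the minus strand is the downstream end of the circle, was shared by 3 circRNAs, and the upstream end at 21216881 by 2. In all, 4 of the 5 shared an end with another. Sharing of this kind was common, since 23 of the 51 hosts with 5 circRNAs (45.1%) had an end used by at least 3 of them.

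The circle most often seen was chr10:21109521-21216881, with a span of 107360 bases, longer than 99.1% of exonic circRNAs. Crushed nerve had 0 and 4 of its reads and sham nerve 10 and 4, so crush replicate 2 tied with sham replicate 2 in reads, while in SRPBM it was lower, at 0.239 against 0.315. The circle chr10:21109521-21136583, with a span of 27062 bases, was read 3 and 0 times in crushed nerve, against 6 and 0 times in sham nerve. It was called in the first replicate of each group and in neither second replicate.

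The other Tenm2 circles were called in 1 sham library each and in no crush library. The smallest, chr10:21109521-21109759, spans 238 bases and had 0 and 3 sham reads. The largest, chr10:21041234-21216881, spans 175647 bases, longer than 99.9% of exonic circRNAs, and had 0 and 2 sham reads. The remaining one, chr10:20882976-20883850, spans 874 bases, lies 157384 bases from the next Tenm2 circle and had 2 and 0 sham reads. No Tenm2 circRNA was called in both crush libraries, so the Tenm2 sums of the crush libraries rest on different circles.

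**Figure D2:**
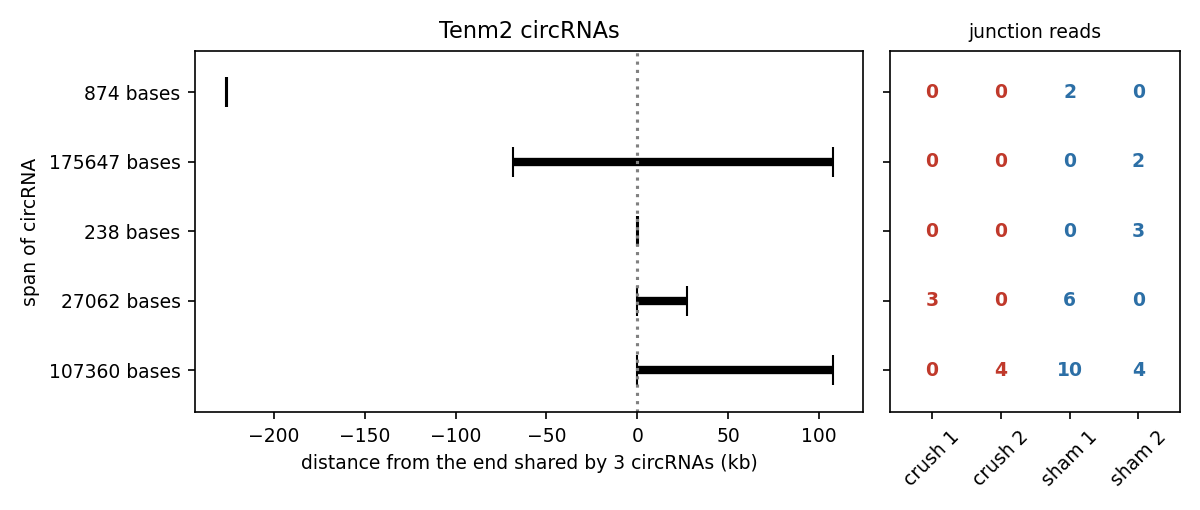
Left, the 5 Tenm2 circRNAs drawn to scale by distance in kb from the end that 3 of them share (dotted line), each named by its span. Right, junction reads of each circRNA in the 4 libraries, crush in red and sham in blue. The 107360-base circle is the only one read in both sham libraries, with 10 and 4 reads, and each crush library holds reads of a different circle.

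Calls followed the same pattern over the 9 circRNAs. The caller reported 1 and 1 of them in the crush libraries against 7 and 6 in the sham libraries, while of all 4942 it reported 36.1% and 40.9% after crush against 34.5% and 34.6% after sham. In no crush library were 7 of the 9 called, where the share over all circRNAs was 36.7%. In both sham libraries and no crush library were 3 of the 9 called (Ptch1, Gli3 and Bnc2), where the share over all was 3.56%. For 4 of the 5 hosts, both sham libraries had more reads than both crush libraries, which held for 11% of all 2327 hosts. Of the 9, 4 were called in 1 library only, where the share over all was 72.6%. The choice of the hosts used these same values, so nothing is read from the difference.

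Some other hosts with equally few sham reads were at 0 after crush too. Of 88 other hosts with the 6 sham reads of Ptch1, 32 had no crush read, and of 39 with the 8 sham reads of Gli3, 14 had none. Of 208 with the 3 sham reads of Tjp1, 131 had none. For Bnc2, 2 of 22 other hosts with its 12 sham reads had no crush read, and of 9 other hosts at the 27 sham reads of Tenm2, 0 had 7 or fewer crush reads. Ptch1, Gli3, Tjp1, Bnc2 and Tenm2 were all chosen on these same crush and sham reads. Nothing is therefore read from how many or how few hosts matched them.

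**Figure D3:**
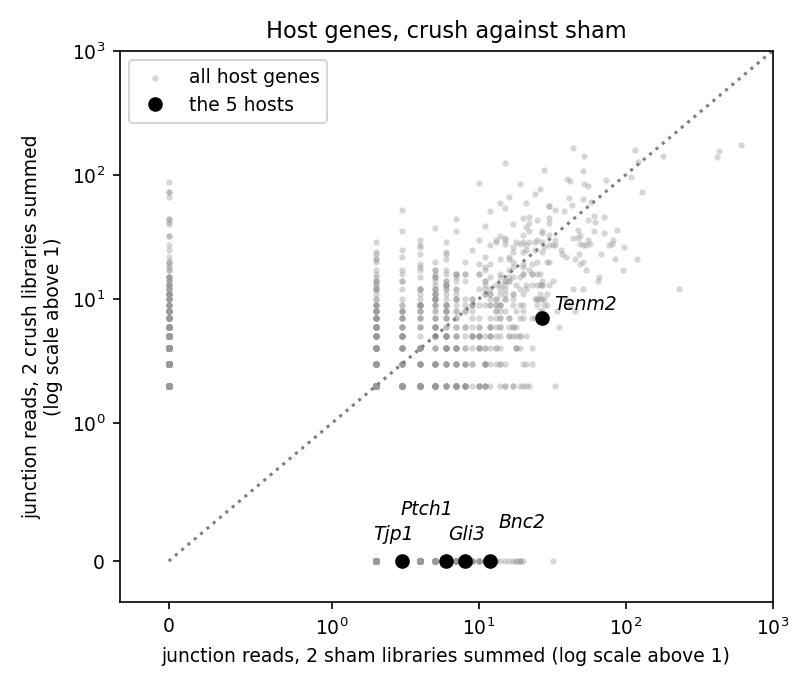
Junction reads of each host gene summed over the 2 crush libraries (vertical) and the 2 sham libraries (horizontal), on axes that are logarithmic above 1, with all 2327 hosts in grey, the 5 hosts in black and equal sums dotted. Tenm2 lies below the line at 7 against 27 reads, and Bnc2, Gli3, Ptch1 and Tjp1 lie at 0 crush reads, where 28.9% of all hosts lie.

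In order of mean level after sham, Tenm2 was highest at 1.01 SRPBM, followed by Bnc2 at 0.452, Gli3 at 0.309, Ptch1 at 0.227 and Tjp1 at 0.109. These are sums of junction reads, which need no correction for transcript length. Gli3 overlapped Bnc2, Ptch1 and Tjp1 in its sham values, which were 0.146 and 0.472 SRPBM. The lower Tenm2 library, at 0.708, was above the higher Bnc2 library, at 0.510. After crush only Tenm2 had a level.

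Other hedgehog hosts were few and did not pass the test. Host genes with at least 5 reads in at least 2 libraries entered the edgeR quasi-likelihood test, 434 in all, of which 8 were higher (1.84%) and 2 lower (0.461%) in crushed nerve at an adjusted p under 0.05. Tenm2 and Bnc2 were among the 434, both by their sham reads alone, and Gli3, Ptch1 and Tjp1 had too few reads. By circRNA, 428 were tested, with 32 higher (7.48%) and 19 lower (4.44%), and of the 9 circRNAs only that of Bnc2 had enough reads to enter. Of 49 hedgehog genes besides Ptch1 and Gli3, 12 gave a circRNA, and 3 of these were tested. None passed in either direction, by edgeR or by DESeq2, and 1 had an unadjusted edgeR p under 0.05, as had 111 of all 434 hosts (25.6%). The median log2 change of the 3 was -0.75, and that of all tested hosts was 0.11. The list was chosen with earlier results of these data known, and 3 hosts are few, so nothing is read from this difference. The median of the 3 was -1.48 without crush replicate 1 and -0.036 without crush replicate 2. The summed reads of the 12 were 23 and 20 after crush against 40 and 56 after sham. Of these, Disp1 alone gave 6 and 6 after crush against 14 and 37 after sham.

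Disp1 was the hedgehog host with most reads. It encodes Dispatched 1, which releases the hedgehog ligand from the cell that makes it. Reads of its 2 circRNAs numbered 6 and 6 in crushed nerve against 14 and 37 in sham nerve. In SRPBM this was 0.397 ± 0.0539 in crushed nerve and 1.96 ± 1.34 in sham nerve (SD, n = 2 each). The log2 change was -1.88 ± 0.68 (SE, adjusted p = 0.148, edgeR), and it was -1.02 without sham replicate 2. Cul3, a ubiquitin ligase scaffold that acts on GLI proteins, had 9 and 7 reads against 7 and 3 (adjusted p = 0.506, edgeR). Itch, a ubiquitin ligase, had 5 and 2 against 8 and 6 (adjusted p = 0.641). Sufu, which restrains GLI factors, had 0 and 0 against 2 and 0, and the co-receptor gene Cdon 0 and 3 against 0 and 2. The values for Sufu and Cdon are too low to compare. Fbxl17, the untested hedgehog host with most reads, had 0 and 0 against 3 and 4. Of the 12 hedgehog hosts with a circRNA, 6 had reads after sham only and 2 after crush only. Of all 2327 hosts, 28.9% had reads after sham only. Smo, Gli1, Gli2, Dhh and Hhip had no circRNA listed.

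Of 43 genes of tight and adherens junction complexes besides Tjp1, 8 gave a circRNA and 3 were tested. None passed by edgeR. DESeq2 gave an adjusted p for Magi2 only (0.0852), and it did not pass. Magi2 also had an unadjusted edgeR p under 0.05, where the share over all hosts was the 25.6% above. Arhgef11 is not counted here, since it entered the test through its sham reads alone, though the 25.6% includes hosts of this kind. The median log2 change of the 3 was -1.77, or -1.30 with the host at 0 set to its bound, against 0.11 for all tested hosts. It was -3.53 without crush replicate 2, when only Magi2 (-1.48) and Arhgef11 (-5.59) were tested. The Arhgef11 value rests on a crush count of 0, so this median is not a measured size of change. The junction list too was chosen with earlier results of these data known, so nothing is read from its distance to 0.11. Magi2, a scaffold gene of cell junctions, had 8 circRNAs, with 11 and 10 reads in crushed nerve against 44 and 40 in sham nerve. In SRPBM this was 0.698 ± 0.141 in crushed nerve and 3.18 ± 0.0421 in sham nerve (SD, n = 2 each). Its log2 change was -1.77 ± 0.44 (SE, adjusted p = 0.0836, edgeR). It passed when at least 10 reads were required (adjusted p = 0.0325) and without sham replicate 2 (log2 change -1.87, adjusted p = 0.0151). Over 13 alternatives its adjusted p ranged from 0.0151 to 0.221.

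Arhgef11, which encodes an exchange factor that binds ZO-1, was listed at 0 in both crush libraries and had 8 and 5 reads in sham nerve, a level at least 2.46-fold lower in crushed nerve. It entered the test through its sham reads alone, which fixes its direction, so no p is given. Magi3 had 0 and 5 against 0 and 6, so its libraries differed more within groups than between them. Its log2 change was -0.12 ± 1.76 (SE, adjusted p = 0.973, edgeR), and 0.96 without crush replicate 1.

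Of 24 perineurium genes, 3 gave a circRNA and 1 was tested. Prss12, a serine protease gene, was listed at 0 in both crush libraries and had 8 and 6 reads in sham nerve, a level at least 2.66-fold lower in crushed nerve. It too entered the test through its sham reads alone, and neither edgeR nor DESeq2 called it. Of 18 teneurin partners and relatives, Adgrl2, Adgrl3 and Ptprd gave a circRNA and none had enough reads to be tested. The latrophilin gene Adgrl3 had 0 and 3 reads against 3 and 0.

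**Figure D4:**
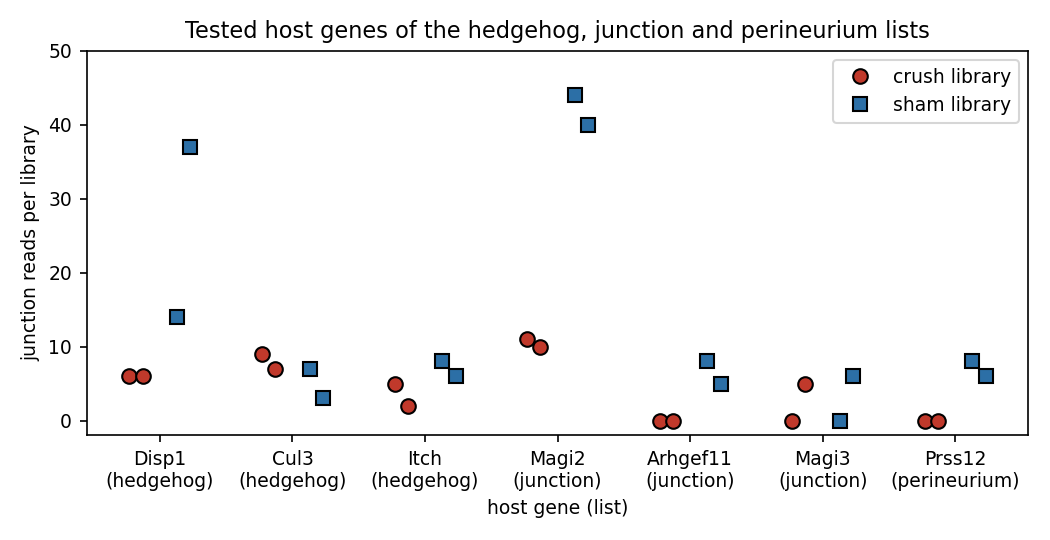
Junction reads in each library (vertical axis) for the tested hosts of the hedgehog, junction and perineurium lists (horizontal axis), with crush libraries as red circles and sham libraries as blue squares. Disp1, Itch, Magi2, Arhgef11 and Prss12 have both sham libraries above both crush libraries, as had 11% of all 2327 hosts. That share includes hosts with too few reads to be tested, and the share among the 434 tested hosts was not computed. Arhgef11 and Prss12 entered the test through their sham reads alone, which fixes their direction. Magi2 is at 11 and 10 crush reads against 44 and 40 sham reads. Magi3 overlaps, and Cul3 has more reads after crush, 9 and 7 against 7 and 3.

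Likeness over the 4 libraries was measured as the Euclidean distance between profiles, each host's share of the junction reads of a library divided by the sum of its 4 shares. It is given for the 2 nearest tested hosts and carries no test, since 4 libraries of like depth are few points. Bnc2 lay nearest to Prss12 (distance 0.0169) and Arhgef11 (0.0456). Tenm2 lay nearest to Gucy1a2 (0.0559), a guanylate cyclase gene at 9 and 8 reads in crushed nerve and 35 and 19 in sham nerve, and to Stk39 (0.0853). Gli3 lay nearest to Ttll7 (0.0387), with 0 and 0 against 5 and 13 reads, and RGD1565616 (0.116). Ptch1 had the same profile as Epb41l3, with 0 and 0 against 6 and 6, and Hace1, with 0 and 0 against 5 and 5. Tjp1 lay nearest to Ralgapa1 (0.0945), at 2 and 10 reads in crushed nerve and 225 and 7 in sham nerve, both profiles resting on sham replicate 1. The next was Psd3 (0.344), at 5 and 3 reads in crushed nerve and 30 and 4 in sham nerve. Prss12, Arhgef11, Ttll7, RGD1565616, Epb41l3 and Hace1 had 0 crush reads and so entered the test through their sham reads alone. Bnc2, Gli3 and Ptch1 were chosen with their 0 crush reads known. Such neighbours follow from that choice, and nothing is read from them.

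The perineurial markers with a circRNA are 4 of the 5 hosts themselves, so their sum is left out here. Among the other cell types, the marker sums of leukocytes, skeletal muscle and Schwann cells did not overlap between the groups. Those of the remaining types overlapped or were tied at 0, and none was tested. In bulk nerve, fewer cells of a type and less RNA per cell cannot be told apart. Circles of 8 of 12 leukocyte markers summed to 4.42 and 3.17 SRPBM after crush against 0 and 0.157 after sham. Those of 5 of 11 skeletal muscle markers, almost all from Mlip, summed to 5.51 and 5.02 after crush against 15.1 and 18.5 after sham, with Ttn, Acta1 and Ckm not listed. The 3 Schwann cell markers summed to 0.290 and 0.239 after crush against 0.583 and 1.02 after sham. The 3 of 8 endothelial markers summed to 0.580 and 0.478 against 0.510 and 0.708, and the 2 of 12 fibroblast markers to 0 and 0.419 against 0 and 0.236. For pericyte and smooth muscle, 1 of 6 markers was listed, at 0 and 0 against 0 and 0.157, and for adipocyte 1 of 6, at 0 and 0 against 0.146 and 0. The part of these cell types in the values of the 5 hosts was not tested.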

How the data were processed

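Total RNA was purified on RNeasy columns and sequenced from paired-end VAHTS libraries, per the labels' protocols. CASAVA 1.8, BWA, edgeR and Rnor_6.0 appear in the submitters' processing notes, with no role stated. No source names the circRNA caller. The deposited files hold, per the file headers, a junction read count for each circRNA and an SRPBM signal, which is that count times a constant of the library, with position, class and host gene.

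Junction reads were summed per host gene, leaving out 3 circRNAs with 2 hosts. Features with at least 5 reads in at least 2 libraries were fitted with edgeR 4.0.16 (quasi-likelihood, TMM, library sizes over the tested features, R 4.3.3), two-sided, Benjamini-Hochberg adjusted over all tested, threshold 0.05. DESeq2 1.42.0 was an alternative. Of 2327 hosts, 2174 symbols were current in RefSeq GRCr8 and 99 matched by synonym. Promoters come from RefSeq GRCr8.

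The members and lists were chosen with earlier results of these data known. Named are all circRNAs of the 5 hosts, for each list the 4 tested hosts with most reads and any that passed, and the 2 tested hosts nearest each of the 5 in profile. Sufu, Cdon, Fbxl17, Adgrl3 and Ercc6l2 were named after their values were seen. With no animals named, p-values speak only of the spread between libraries, which may be technical. Bounds are in SRPBM, without TMM.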

Additional observations from a re-analysis of the deposited data

How the results depend on the processing

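The lower circRNA sum of the 5 hosts after crush kept its direction in all 7 alternatives. With 3 and 4 reads against 33 and 23 in hosts chosen on these values, none of them could have reversed it. They show only how far the size moved. Its log2 ratio of crush to sham was -3.21 in SRPBM, -2.96 per junction read of the library, -2.79 per TMM-scaled junction read, and -3.40 to -2.99 with any 1 library left out. The log2 change of Tenm2 was -2.10 with library totals from SRPBM, against -1.69 with TMM, and -1.68 to -1.45 without 1 crush library. Without a sham library Tenm2 and Bnc2 had too few reads to be fitted. The fitted change of Bnc2, which depends on the prior count since crush was at 0, was -5.51, and -5.71 with SRPBM totals, -4.80 by DESeq2 and -5.53 to -5.48 without 1 crush library. Gli3, Ptch1 and Tjp1 were fitted only with a lower filter.

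The count of the junction list past the threshold was 0, 1 (Magi2) with at least 10 reads, and 0 to 1 with 1 library left out. Magi3 changed sign without crush replicate 1, to 0.96, and its range with 1 library left out was -1.25 to 0.96. The hedgehog and perineurium lists had 0 hosts past the threshold in every alternative that could test them.

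Over all features, 32 circRNAs were higher and 19 lower after crush, and 8 hosts higher and 2 lower. The counts of circRNAs were 0 and 0 with at least 2 reads, 15 and 8 with at least 10, and 23 and 7 by DESeq2. With 1 library left out they were 2 to 62 and 3 to 14. Hosts numbered 0 and 0 with at least 2 reads, 30 and 14 with at least 10, 27 and 12 with no filter, 26 and 6 by DESeq2, and 14 and 6 over exonic circRNAs only. With library sizes over all junction reads, an alternative chosen after seeing the data, they were 0 and 0, and with 1 library left out 0 to 73 and 0 to 11. With SRPBM totals the circRNAs numbered 31 and 28 (52.5% higher, against 62.7%) and the hosts 8 and 6 (57.1%, against 80.0%), as the median host log2 change moved to -0.30 from 0.11. The cause of the other shifts was not tested.

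With the replicate number as a block, 0 circRNAs passed in either direction, and 18 hosts were higher and 6 lower. The labels do not say that a number marks shared animals or days. The deviations of same-numbered samples correlated at -0.0555 over 434 hosts. With 2 libraries a group and few reads per host, this value cannot show whether same-numbered libraries share animals or days. The main fit left the numbers out. With the block the log2 changes of Tenm2 and Bnc2 were -1.64 and -5.50. The 2 libraries a group and counts of 2 to 10 reads per circRNA limit every value of the 5 hosts.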
